A study of Coturnix japonica with 24 samples.

Results

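The genes described here store, carry and release iron: FTH1, TF, TFRC, SLC11A2, SLC40A1, CP, HMOX1 and HEBP1. They were taken by symbol from the deposited liver and adipose tables, with a gene's transcripts summed, and make up 8 of the 17239 genes that the tables list between them. Both tables list all 8 genes. None of the deposited transcript accessions is in the quail RefSeq table, so a gene's level may depend on how well its reads matched the transcripts used, which was not tested.

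The samples come from male Japanese quail (Coturnix japonica), a bird whose physiology follows day length, and the series addresses seasonal changes in liver and abdominal white adipose tissue. All birds had been kept on long days of 16 hours of light and 8 hours of darkness. Groups were then held at 8 hours of light (8L, called short), 12 hours (12v, called long) or 16 hours (16v, called long). Each of the 6 groups, 3 photoperiods in 2 tissues, holds 4 libraries, and no age, strain or other treatment is given in the sources used here. The design counts 12 birds, but the labels do not tie every library to a bird, so p-values measure the spread between these samples. Polyadenylated RNA was read as PCR-amplified cDNA on a Nanopore instrument. Levels are in CPM, the gene's count scaled to a common library size with TMM factors (trimmed mean of M values). Changes are log2 fold changes with standard errors (SE) from edgeR's quasi-likelihood test, and a gene passed at a Benjamini-Hochberg adjusted p under 0.05 over all genes tested.

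Iron is needed for heme and for iron-sulfur proteins, but free iron is toxic, so cells keep it bound. In blood it travels on transferrin and enters cells through the transferrin receptor; inside cells the surplus is held in ferritin, and it leaves only through ferroportin. The liver is the main iron store and the source of circulating transferrin and ceruloplasmin, and heme oxygenase returns iron from worn-out heme. Much of this system is set after transcription: iron regulatory proteins control translation of ferritin heavy chain mRNA and stability of transferrin receptor mRNA in mammals. Transcript levels are what these data measure.

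The liver libraries held 72125 to 867217 counts and the adipose libraries 72716 to 1389063. Some transcripts of a gene carry identical counts, so these totals can count a read more than once. With only 1 transcript per gene, that of the highest mean share, the totals were 38526 to 494437 and 42912 to 787623. In liver, 3 libraries had low scores on a component of 70 ribosomal protein genes: 12v replicates 1 and 3 and 16v replicate 1, at -6.77, -7.96 and -9.05, against -0.80 to 6.09 in the other 9. In adipose tissue 16v replicate 2, the shallowest library there, stood at -11.4. All 70 genes had positive weights on the component in adipose tissue, but 55 of 70 in liver, so the liver score is not simply their level. Averaged as log2 CPM around each gene's mean, these genes were lowest in the 3 liver libraries of low score (-0.31, -0.60 and -0.43). Liver 12v replicate 4 was at -0.15 by that average despite a score of 2.93. The tissue labels hold against their markers. Hepatocyte markers summed to between 84650 and 163500 CPM in liver (16 of 17 listed, without RBP4). In adipose tissue (13 of 17 listed, without AHSG, HNF4A, TAT and RBP4) they summed to 1714 to 20170 CPM, most of it APOA1, with a mean of 7689 CPM beside 50.24 CPM of ALB and 10.55 CPM of TTR. Adipocyte markers summed to between 24090 and 57570 CPM in adipose tissue (11 of 11 listed) and 890.6 to 1499 CPM in liver (10 of 11, without PLIN1).

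No iron gene passed the test between photoperiods in either tissue. Between the tissues 5 of the 7 with enough counts passed, as did 57% of all 7276 tested genes. Between photoperiods the changes with the smallest p were a lower SLC40A1 and a higher HEBP1 in adipose tissue and a lower HMOX1 in liver, each on long days. In liver 6 of the 8 genes had enough counts to test (all but TFRC and SLC11A2), and in adipose tissue 5 had (all but SLC11A2, CP and HMOX1). As background, 15 of 4532 tested liver genes passed between 12v and 8L (0.331%), 36 between 16v and 8L (0.794%), 1 between 16v and 12v (0.0221%) and 174 between the mean of both long groups and 8L (3.84%). In adipose tissue 1 of 6494 tested genes passed between 12v and 8L (0.0154%), 0 between 16v and 8L, 0 between 16v and 12v, and 1 between long and short (0.0154%). At an unadjusted p under 0.05 these edgeR counts for 16v against 8L and 16v against 12v in adipose tissue were 434 and 306. DESeq2 called 38 and 5 genes there. The comparisons with 8L share the 8L libraries and are given side by side, not as independent results. In tissue samples, fewer cells of a type and less RNA per cell cannot be told apart.

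**Figure D1:**
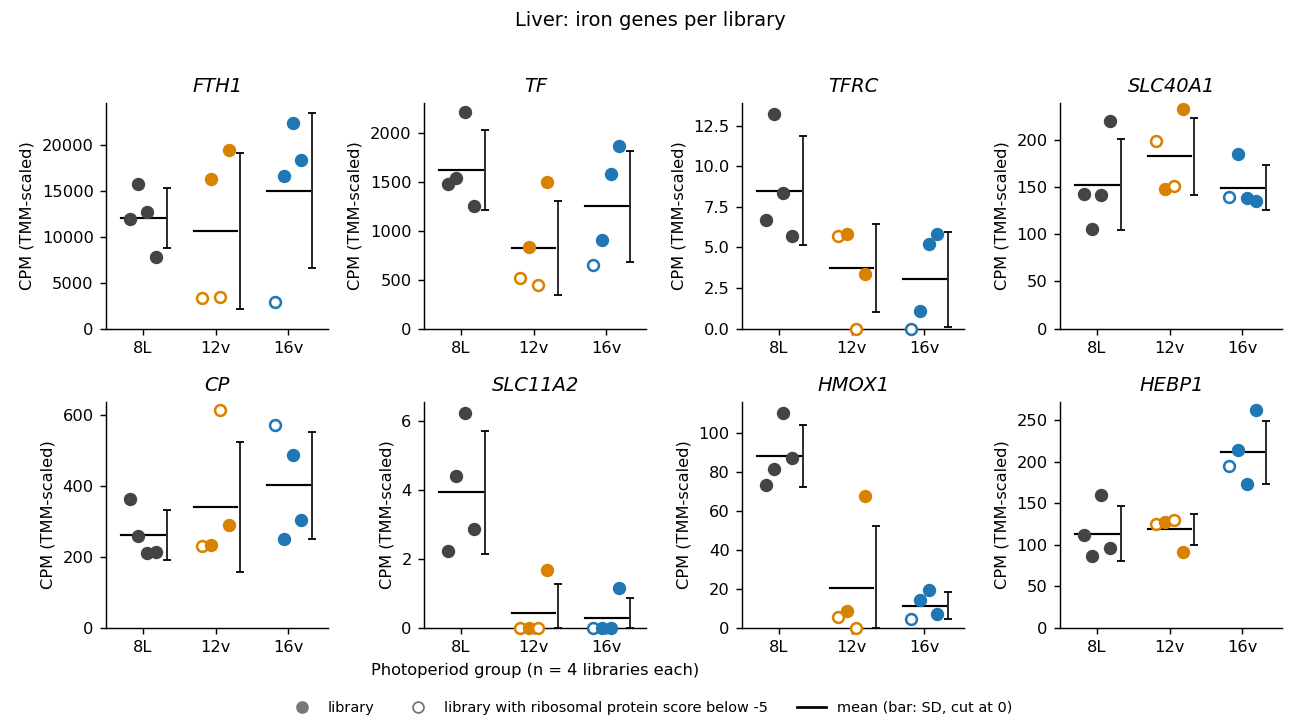
CPM of the 8 iron genes in each liver library, by photoperiod group (horizontal axis), with 4 points per group, the group mean as a line and the SD as a bar. Open circles are the 3 libraries with the lowest ribosomal protein scores; all 8 long-day libraries lie below the 8L libraries for HMOX1, and all 16v libraries lie above 8L and 12v for HEBP1.

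FTH1 encodes the ferritin heavy chain, the subunit that oxidises iron as it is stored. In liver its level at 8L was 11933, 15814, 12743 and 7766 CPM. At 12v it was 3314, 16314, 3453 and 19534 CPM, and at 16v 2847, 16649, 22408 and 18408 CPM. The long-day values thus fell into a low set and a high set, and the low set was exactly the 3 libraries with low ribosomal protein scores. The other 5 long-day libraries lay above all 8L libraries. The share of all tested genes that separate in this way without the 3 libraries was not counted. The score itself ran with liver FTH1 (Pearson correlation 0.814 over 12 libraries), so leaving out low-score libraries removes low FTH1 values. Group means were 12064 ± 3318 CPM at 8L, 10654 ± 8497 at 12v and 15078 ± 8502 at 16v (SD, n = 4 each). The fitted difference between long and short days was 0.07 ± 0.58 (adjusted p = 0.956, edgeR), with a 95% interval from -1.07 to 1.22. Without the 3 libraries it was 0.67 (adjusted p = 0.236, edgeR), and after adjustment for the score 1.42 (adjusted p = 0.0766), so no direction can be given for liver FTH1. What the low scores of these libraries reflect was not tested.

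In adipose tissue FTH1 was 4483, 4589, 3477 and 7434 CPM at 8L. It was 9611, 6182, 11956 and 7138 CPM at 12v, and 14275, 5541, 13424 and 7150 CPM at 16v. All 8 long-day libraries lay above the 8L mean, while 8L replicate 4 overlapped both long groups. The share of all tested genes with such a looser pattern was not counted, here or for TF and TFRC below. The difference between 16v and 8L was 1.02 ± 0.39, a 2.02-fold higher level, and did not pass (adjusted p = 0.612, edgeR). For 12v it was 0.80 ± 0.39 (adjusted p = 0.98, edgeR), and 12v and 16v differed by 0.21 ± 0.38. The gene's 2 listed transcripts carry identical counts in every library, so each FTH1 level may count the same reads for both.

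TF encodes transferrin, the plasma iron carrier. Liver TF at 8L was 1482, 1540, 2217 and 1256 CPM. It was 515, 833, 442 and 1504 CPM at 12v, and 650, 908, 1581 and 1864 CPM at 16v. All 12v libraries lay below the 8L mean of 1624 ± 414 CPM (SD, n = 4), but 12v replicate 4 lay within the 8L range. The difference of 12v from 8L was -0.97 ± 0.45 (adjusted p = 0.274, edgeR) and that of 16v was -0.38 ± 0.45 (adjusted p = 0.663, edgeR). The lowest 3 values were again those of the libraries with low ribosomal protein scores. Without them the difference for 12v was -0.42 and that for 16v -0.11. After adjustment for the score it was -0.19 for 12v and turned to 0.43 for 16v and 0.12 for long days (adjusted p = 0.908, edgeR), so no direction can be given for liver TF on long days.

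Adipose TF at 8L was 1058, 1365, 325 and 1676 CPM. It was 418, 856, 550 and 637 CPM at 12v, and 625, 117, 1072 and 766 CPM at 16v. Each long-day library lay below the 8L mean of 1106 ± 579 CPM (SD, n = 4), and the groups overlapped because of 8L replicate 3. The long-day difference was -0.80 ± 0.47 (adjusted p = 0.855, edgeR). The value of 117 CPM rests on 10 counts in the shallow 16v replicate 2.

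TFRC encodes the transferrin receptor, through which cells take up iron-loaded transferrin. It was sparse in liver, with 35 counts over 12 libraries, and was not tested there. Liver levels were 5.73 to 13.3 CPM at 8L, 0 to 5.81 CPM at 12v and 0 to 5.82 CPM at 16v, so the ranges touched. With no count filter the long-day difference was -1.12 (adjusted p = 0.536, edgeR). In adipose tissue TFRC was 5.70, 7.80, 6.02 and 20.04 CPM at 8L, 12.4, 18.7, 19.9 and 8.89 CPM at 12v, and 9.77, 11.7, 21.8 and 14.1 CPM at 16v. All 8 long-day libraries lay above 3 of the 4 8L libraries, and 8L replicate 4 lay above 7 of the 8. The long-day difference was 0.54 ± 0.47 (adjusted p = 0.956, edgeR).

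SLC11A2 encodes a transporter of ferrous iron across the endosome and the gut surface. It had 10 counts in all liver libraries together. At 8L the counts were 1, 2, 3 and 2, and on long days 6 of 8 libraries had none, with a single count in 12v replicate 4 and in 16v replicate 4. In CPM the 8L libraries held 2.23 to 6.25 and the long-day libraries at most 1.69. Libraries with no count allow levels of up to 3.31 to 32.4 CPM at a floor of 3 counts per library, which covers counting error only, so no lower level on long days can be read from the zeros. With no count filter the long-day difference was -2.66 (adjusted p = 0.213, edgeR). Adipose tissue gave 8 counts in 12 libraries and no pattern by photoperiod.

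SLC40A1 encodes ferroportin, the cell's iron exporter, made at high levels by macrophages. In adipose tissue it was 223, 264, 373 and 335 CPM at 8L. It was 173, 238, 137 and 146 CPM at 12v, and 163, 93.5, 131 and 125 CPM at 16v. All 16v libraries lay below all 8L libraries, and 12v overlapped 8L only through replicate 2. The 93.5 CPM of the shallow 16v replicate 2 rest on 8 counts summed over transcripts. Means were 299 ± 67.5 CPM at 8L, 173 ± 45.8 at 12v and 128 ± 28.4 at 16v (SD, n = 4 each), and 12v and 16v did not differ beyond their spread. The difference of 16v from 8L was -1.20 ± 0.30, a 2.29-fold lower level (adjusted p = 0.439, edgeR). Lower groups with no overlap were found for 3.57% of tested genes in that comparison. For long against short days the difference was -0.99 ± 0.25 (adjusted p = 0.414, edgeR), rank 21 by p of 6494 genes. DESeq2 gave adjusted p = 0.0214 for 16v and 0.0207 for long days.

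In liver SLC40A1 was 143, 106, 142 and 221 CPM at 8L, 199, 148, 151 and 233 CPM at 12v, and 140, 185, 138 and 135 CPM at 16v. The groups overlapped and the long-day difference was 0.12 ± 0.28 (95% interval -0.43 to 0.67, adjusted p = 0.832, edgeR). The change at 16v was thus 1.31 ± 0.47 higher in liver than in adipose tissue on the log2 scale (adjusted p = 0.2, edgeR). That at 12v was 1.08 ± 0.47 higher (adjusted p = 0.417, edgeR). Neither passed in edgeR, where 0.33% and 0.426% of 7276 genes did; DESeq2 gave 1.22 with adjusted p = 0.0356 for 16v. The 2 transcripts of SLC40A1 also carry identical counts. Summed macrophage markers (14 of 18 listed; AIF1, CD68, MRC1L and VSIG4 not among them) were in adipose tissue 234.6 to 372.4 CPM at 8L, 160.4 to 512.6 at 12v and 210.4 to 374.4 at 16v. Summed stromal markers (7 of 7) were 4403 to 10220 CPM at 8L, 4087 to 5511 at 12v and 1755 to 5001 at 16v. Summed endothelial markers (11 of 11) were 1289 to 3642 CPM at 8L, 991.1 to 2786 at 12v and 864.5 to 1864 at 16v. Of the 6 endothelial genes tested on long days 5 had a fitted level below 8L and none passed, with a median of -0.86 beside -0.06 over all genes. Summed erythrocyte markers (13 of 20 listed) were 6599 to 10870 CPM at 8L, 7200 to 20200 at 12v and 5824 to 13840 at 16v. Of the 8 erythrocyte markers tested on long days 5 had a fitted level above 8L, 3 below, and none passed. The part of these cell types in the SLC40A1 difference, or in those of the other iron genes, was not tested.

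**Figure D2:**
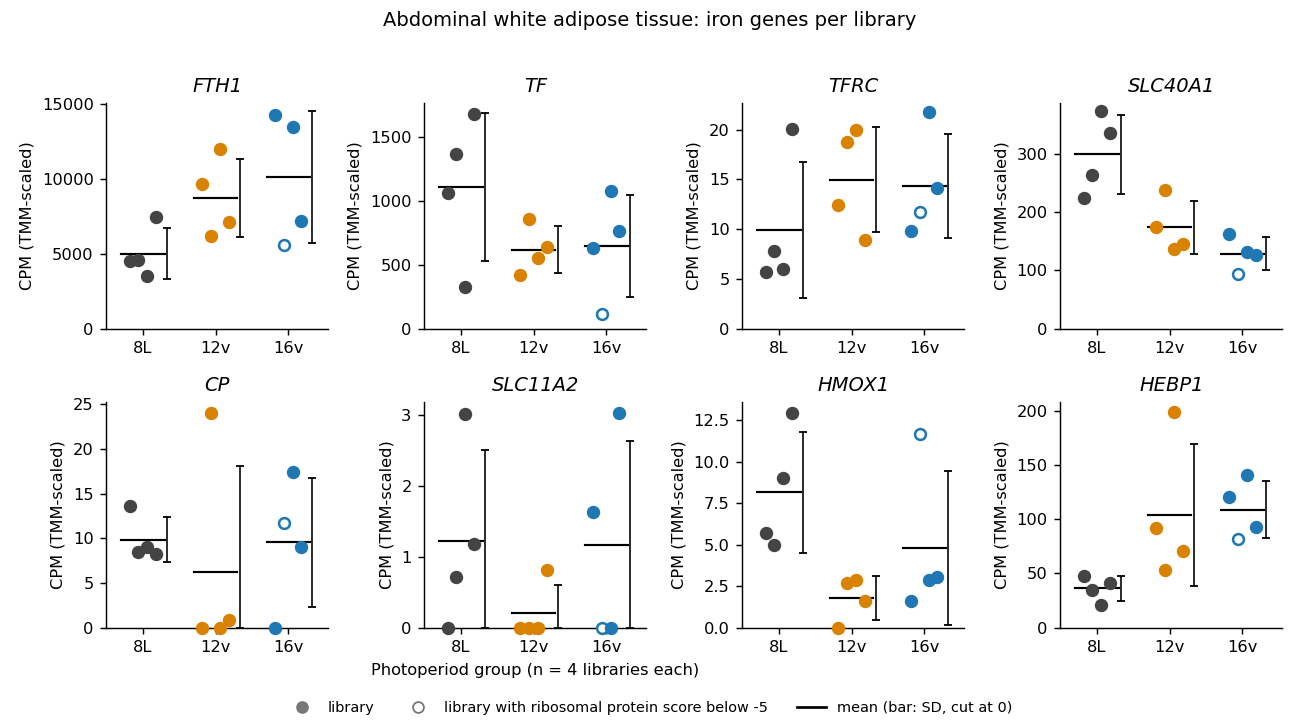
CPM of the 8 iron genes in each adipose library, by photoperiod group (horizontal axis), with 4 points per group, the group mean as a line and the SD as a bar. The open circle is the shallow 16v replicate 2; HEBP1 lies higher in all 8 long-day libraries than at 8L, and SLC40A1 lies lower in all 4 of 16v than at 8L.

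CP encodes ceruloplasmin, a copper protein of plasma that oxidises iron so that transferrin can bind it. In liver it was 363, 259, 210 and 215 CPM at 8L, 231, 233, 615 and 291 CPM at 12v, and 572, 250, 487 and 304 CPM at 16v. The highest values were in 12v replicate 3 and 16v replicate 1, both with low ribosomal protein scores, and all groups overlapped. The long-day difference was 0.49 ± 0.35 (adjusted p = 0.399, edgeR), and -0.00222 after adjustment for the score. In adipose tissue CP was at or near the limit of detection, from 0 to 24.1 CPM and 75 counts in all over 3 transcripts, and it was not tested there. The 3 transcripts carry near-equal counts (741, 693 and 690 in liver, 27, 24 and 24 in adipose tissue). Each CP level may thus count the same reads for several transcripts.

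HMOX1 encodes heme oxygenase 1, the inducible enzyme that opens the heme ring and frees its iron. In liver it was 73.5, 81.8, 110 and 87.4 CPM at 8L. It was 5.69, 8.72, 0 and 67.6 CPM at 12v, and 4.38, 14.3, 19.5 and 6.98 CPM at 16v. All 8 long-day libraries lay below all 8L libraries, and 12v replicate 4 alone lay near them. The library at 0, 12v replicate 3, is the shallowest and allows up to 32.4 CPM. Such lower groups with no overlap were found for 4.92% of tested genes between long and short days. Means were 88.3 ± 15.8 CPM at 8L, 20.5 ± 31.6 at 12v and 11.3 ± 6.92 at 16v (SD, n = 4 each), from 184, 48 and 36 counts.

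The fitted long-day difference of liver HMOX1 was -2.42 ± 0.64, a 5.34-fold lower level (adjusted p = 0.0561, edgeR), with a 95% interval from -3.68 to -1.15. For 16v it was -2.91 ± 0.82 (adjusted p = 0.0925, edgeR) and for 12v -1.92 ± 0.80 (adjusted p = 0.234, edgeR). This gene sat at the edge of the threshold, at rank 204 by p on long days. In that comparison 1180 of 4532 tested liver genes (26%) had an unadjusted p under 0.05 (edgeR). Without 12v replicate 4 the long-day difference was -3.33 (adjusted p = 0.00247, edgeR), that for 12v -3.78 (adjusted p = 0.0151) and that for 16v had adjusted p = 0.019. None of the other 11 fits that left out 1 library passed in any of the 3 comparisons. Their adjusted p reached 0.163 on long days, 0.419 for 12v and 0.216 for 16v (edgeR). DESeq2 gave -2.52 with adjusted p = 0.00475 for long days. Without the 3 libraries of low ribosomal protein score it was -1.89 (adjusted p = 0.105, edgeR), and after adjustment for the score -1.26 (adjusted p = 0.493). HMOX1 was lower on long days in each of these fits.

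**Figure D3:**
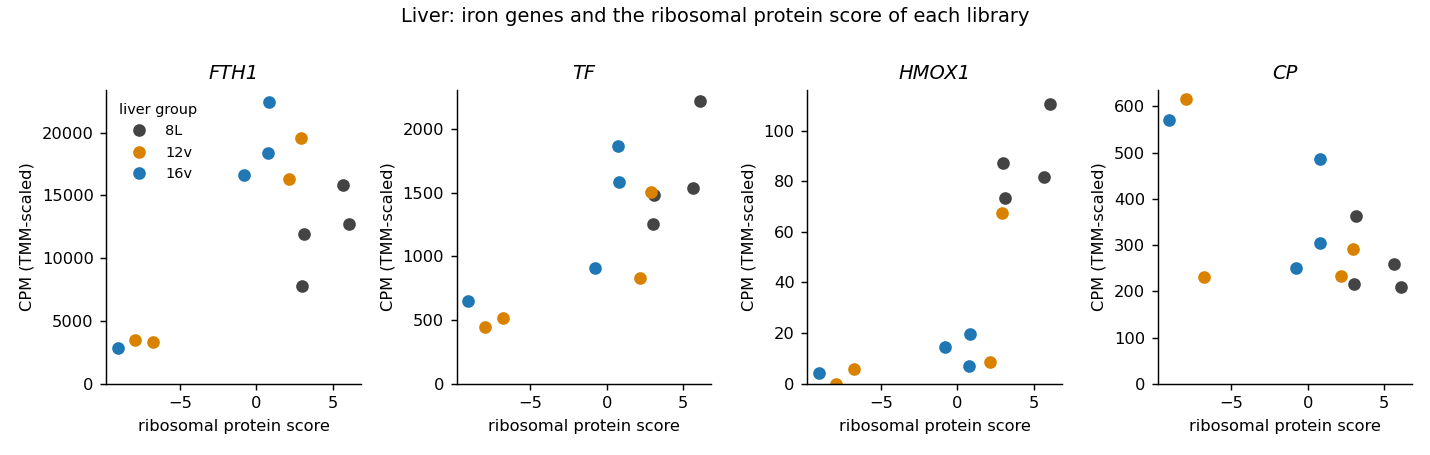
CPM of FTH1, TF, HMOX1 and CP in the 12 liver libraries (vertical axes) against the library's ribosomal protein score (horizontal axes, no unit), coloured by photoperiod group. The 3 libraries at the left have the lowest FTH1, TF and HMOX1; among the other 9, HMOX1 was 73.5 to 110 CPM at 8L and 6.98 to 67.6 CPM on long days.

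The ribosomal protein score moved with photoperiod as well as with HMOX1. The 4 libraries of 8L had the scores 3.12, 5.67, 6.09 and 3.00, and the long-day libraries reached at most 2.93, so score and photoperiod can be separated only in part. At a score close to that of 8L, 12v replicates 2 and 4 (2.17 and 2.93) held 8.72 and 67.6 CPM of HMOX1. The 3 deep 16v libraries (-0.80, 0.83 and 0.77) held 14.3, 19.5 and 6.98 CPM. FTH1 in those 5 libraries was 16314 to 22408 CPM, above the 8L range, while HMOX1 was below it. The share of all tested genes with either pattern in these libraries was not counted. Setting aside the low-score libraries, which have the lowest FTH1, favours that FTH1 pattern.

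In adipose tissue HMOX1 was sparse, with 38 counts in all. It was 5.70, 4.97, 9.02 and 12.96 CPM at 8L, 0, 2.67, 2.85 and 1.62 CPM at 12v, and 1.63, 11.7, 2.90 and 3.03 CPM at 16v. Long-day libraries were below all 8L libraries except 16v replicate 2, whose 11.7 CPM is a single count. With no count filter the long-day difference was -1.66 (adjusted p = 0.738, edgeR). In the fit of both tissues the change of HMOX1 at 16v differed between liver and adipose tissue by -1.51 ± 1.17 (adjusted p = 0.589, edgeR) and that at 12v by 0.17 ± 0.68 (adjusted p = 0.996).

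HEBP1 encodes a small cytosolic heme-binding protein; a peptide cut from it attracts phagocytes in mammals. In adipose tissue it was 47.9, 34.8, 21.1 and 41.3 CPM at 8L. It was 91.6, 53.5, 199 and 70.3 CPM at 12v, and 120, 81.8, 141 and 92.9 CPM at 16v. Every long-day library lay above every 8L library, a pattern found upward for 0.447% of tested genes. The 81.8 CPM of the shallow 16v replicate 2 and the 21.1 CPM of 8L replicate 3 rest on 7 counts each. Means were 36.2 ± 11.5 CPM at 8L, 104 ± 65.7 at 12v and 109 ± 26.7 at 16v (SD, n = 4 each). The long-day difference was 1.53 ± 0.40, a 2.88-fold higher level (adjusted p = 0.414, edgeR), rank 29 by p, with a 95% interval from 0.75 to 2.30. It did not pass in edgeR and had adjusted p = 0.0188 in DESeq2. The 12v and 16v groups differed by 0.11 ± 0.43.

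In liver HEBP1 was 111, 86.2, 160 and 96.0 CPM at 8L, 125, 128, 129 and 91.2 CPM at 12v, and 195, 214, 173 and 263 CPM at 16v. All 16v libraries lay above all 8L and all 12v libraries, and 12v overlapped 8L. Upward separation of 16v from 8L was found for 9.89% of tested liver genes, and of 16v from 12v for 1.74%. The difference of 16v from 8L was 0.90 ± 0.32, a 1.86-fold higher level (adjusted p = 0.134, edgeR), and that from 12v was 0.84 ± 0.32 (adjusted p = 0.999). The change from 8L to 12v was 0.06 ± 0.32 in liver. In the fit of both tissues it was lower in liver than in adipose tissue by 1.39 on the log2 scale (-1.39 ± 0.57, adjusted p = 0.379, edgeR). HEBP1 at 16v against 8L in liver had adjusted p = 0.0313 in DESeq2 and hardly moved without the 3 libraries of low score (1.00, adjusted p = 0.129, edgeR).

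**Figure D4:**
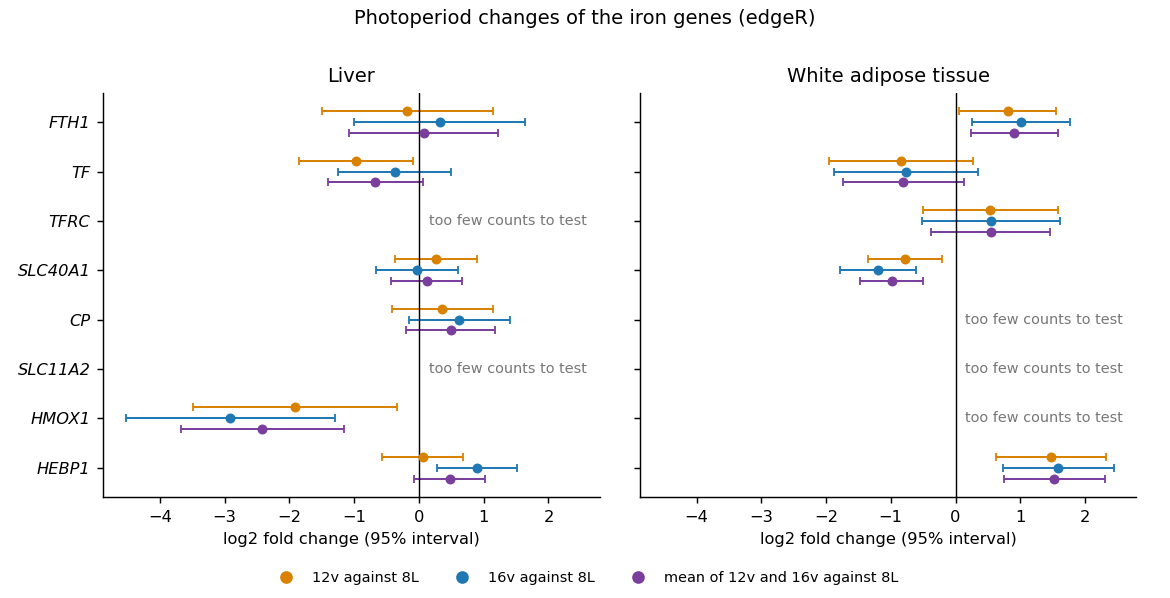
Fitted log2 fold changes from 8L (horizontal axis) of the iron genes, with 95% intervals, in liver and white adipose tissue. The intervals are normal ones and are narrower than the edgeR test implies. HMOX1 in liver spans -3.68 to -1.15 for the mean of both long groups, and SLC40A1 and HEBP1 in adipose tissue lie on opposite sides of 0; no gene passed after adjustment over all genes.

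Between the tissues, 5 of 7 tested iron genes passed as higher in liver (57% of 7276 genes passed in either direction, 23.5% higher in liver). Values are here scaled over all 24 libraries together. CP was 398 ± 150 CPM in liver and 7.09 ± 6.35 CPM in adipose tissue (SD, n = 12 each) and differed by 5.71 ± 0.51 on the log2 scale, 52.5-fold (adjusted p = 2.61e-09, edgeR). It is the one iron gene whose tissues did not overlap, as for 6.21% of genes upward in liver. HMOX1 was 47.9 ± 47.5 against 4.03 ± 3.31 CPM, 3.45 ± 0.47 higher in liver (adjusted p = 1.63e-06, edgeR). HEBP1 was 180 ± 75.7 against 69.2 ± 42.7 CPM, 1.44 ± 0.23 higher (adjusted p = 1.56e-05, edgeR).

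FTH1 was 15594 ± 8916 against 6655 ± 3095 CPM, 1.27 ± 0.36 higher in liver (adjusted p = 0.00446, edgeR). TF was 1502 ± 704 against 671 ± 390 CPM, 1.17 ± 0.34 higher (adjusted p = 0.00513, edgeR). With library size alone as scaling, FTH1 and TF no longer passed (0.66, adjusted p = 0.0806, and 0.61, adjusted p = 0.0748), nor did TF without adipose 12v replicate 1 (adjusted p = 0.0552). FTH1 also did not pass with libraries blocked by label number. SLC40A1 was 195 ± 48.98 against 168 ± 74.4 CPM and did not pass (0.30 ± 0.19, adjusted p = 0.183, edgeR). TFRC was 6.20 ± 4.45 against 10.9 ± 4.89 CPM, the one tested member with a lower fitted level in liver (-0.83 ± 0.41, adjusted p = 0.0877, edgeR). It passed with DESeq2 (-1.07, adjusted p = 0.0148), with either other scaling and without adipose 12v replicate 1 (-1.19, adjusted p = 0.0184, edgeR). TFRC did not pass in the other 23 fits that left out 1 library (adjusted p up to 0.268, edgeR). The median over the 7 was 1.27, where that over all 7276 genes was -0.36. That median moved to -0.58 with relative log expression factors and to -0.88 with library size alone, so tissue differences depend on the scaling. SLC40A1 passed without the 3 liver libraries of low score (0.63, adjusted p = 0.00906), passed without liver 12v replicate 3 alone (0.44, adjusted p = 0.0405, edgeR) and reversed with library size alone (-0.22). It did not pass in the other 23 fits that left out 1 library (adjusted p up to 0.931, edgeR). Of the erythrocyte markers, all 7 tested had a lower fitted level in liver and 4 passed, where 33.4% of all genes passed as lower. The part of erythrocytes in the tissue differences was not tested.

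**Figure D5:**
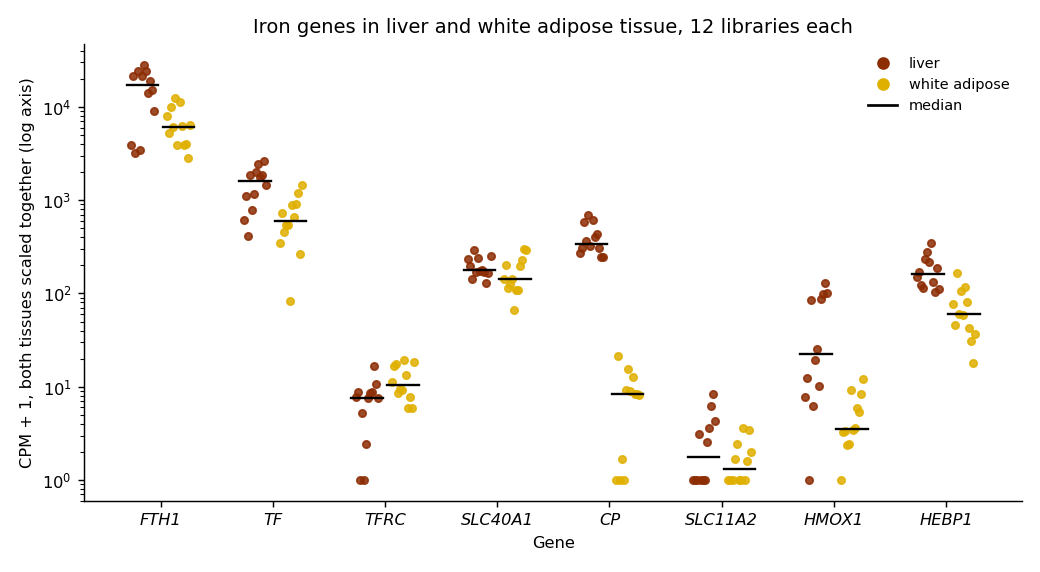
CPM plus 1 on a log axis for each iron gene (horizontal axis) in the 12 liver and the 12 adipose libraries, scaled together, with medians as lines. CP separates the tissues, while SLC40A1 and TFRC overlap.

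Ordered over the 6 groups, ferroportin had its extremes in adipose tissue. Mean SLC40A1 was highest in adipose 8L (253 ± 49.99 CPM), followed by liver 12v (216 ± 62.7), liver 16v (189 ± 32.7), liver 8L (179 ± 53.2), adipose 12v (145 ± 38.4) and adipose 16v (106 ± 30.7; SD, n = 4 each). Each neighbouring pair in that order lay within the sum of its SDs. HEBP1 ran from liver 16v (268 ± 56.8 CPM) over liver 12v (138 ± 25.5) and liver 8L (133 ± 38.7) to adipose 16v (89.9 ± 26.3), adipose 12v (86.6 ± 54.5) and adipose 8L (31.0 ± 10.4). Liver 16v stood apart from its neighbour in that order by more than the sum of the SDs, and the other neighbours did not. HMOX1 had its highest mean in liver 8L, at 104 ± 18.4 CPM, and liver 12v came next at 25.6 ± 39.3 CPM.

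Other genes of iron handling were read from lists around the same pathway, chosen with earlier results of these data known. In liver, 4 of them passed between long and short days, where 1.59% of tested genes passed upward and 2.25% downward. In each of the 4 the 8 long-day libraries lay apart from the 8L libraries, as for 3.27% of tested genes upward and 4.92% downward. The 4 were picked for passing on these same libraries, so the separation is not a further result. NCOA4, the receptor that sends ferritin to lysosomes to release its iron, rose by 1.11 ± 0.25 (adjusted p = 0.032, edgeR). It was 160 to 284 CPM at 8L and 397 to 591 CPM in the 8 long-day libraries. BACH1, a heme-sensing repressor of HMOX1 in mammals, rose by 1.54 ± 0.39 (adjusted p = 0.0461, edgeR), from 33.3 to 80.2 CPM at 8L to 93.1 to 239 CPM on long days. TSPO, a protein of the outer mitochondrial membrane that binds porphyrins, fell by 2.49 on the log2 scale (-2.49 ± 0.50, adjusted p = 0.0241, edgeR). It was 89.1 to 168 CPM at 8L and 0 to 40.6 CPM on long days. EPAS1, the hypoxia-inducible factor HIF-2α, rose by 2.45 ± 0.38 (adjusted p = 0.00981, edgeR), from 117 to 381 CPM at 8L to 833 to 2180 CPM on long days. EPAS1 also passed in 12v alone (2.39, adjusted p = 0.0346) and 16v alone (2.52, adjusted p = 0.0244, edgeR). Those calls were lost in 9 and 6 of the 12 fits that left out 1 library, with adjusted p up to 0.158 and 0.118.

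After adjustment for the ribosomal protein score the calls of BACH1, NCOA4, TSPO and EPAS1 on long days were lost (adjusted p = 0.332, 0.196, 0.245 and 0.0766, edgeR). The differences in that fit were 0.97, 0.91, -2.12 and 2.02 on the log2 scale, against 1.54, 1.11, -2.49 and 2.45 without the adjustment. The BACH1 call was lost in 11 of the 12 fits that left out 1 library and held without 12v replicate 4 (adjusted p = 0.0169, edgeR). The NCOA4 call was lost in 9 of the 12 (adjusted p up to 0.127), that of TSPO in 4 (up to 0.101) and that of EPAS1 in 1 (0.0559). Without 8L replicate 2 all 4 calls were lost. Their direction stayed the same in all fits run.

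Among the macrophage markers MRC1 (1.91 ± 0.47, adjusted p = 0.0414) and TIMD4 (1.56 ± 0.39, adjusted p = 0.0462, edgeR) rose on long days in liver, each call held in 1 of the 12 fits without a library. Of the 10 macrophage markers tested 5 had a fitted level above 8L and 5 below, with a median of -0.03 beside -0.02 over all genes. The summed list was 336.4 to 364.6 CPM in 3 libraries of 8L and 836.4 CPM in 8L replicate 4, 441.9 to 593.5 at 12v and 370 to 544.5 at 16v. Hepatocyte markers summed to 124900 to 163500 CPM at 8L, 88600 to 146600 at 12v and 84650 to 120700 at 16v. Endothelial markers (11 of 11 listed) summed to 73.5 to 115 CPM at 8L, 144 to 237 at 12v and 141 to 220 at 16v. All 3 endothelial genes tested had a fitted level above 8L on long days and none passed (median 1.41). Stromal markers (7 of 7) summed to 182.7 to 306.5 CPM at 8L, 129.5 to 510.3 at 12v and 355.6 to 521.2 at 16v, with 16v above 8L in every library. All 4 stromal genes tested had a fitted level above 8L on long days and none passed (median 0.61). Erythrocyte markers (12 of 20 listed) summed to 1517 to 6077 CPM at 8L, 1706 to 3870 at 12v and 1017 to 6435 at 16v. AHSG, the plasma protein fetuin-A and one of the hepatocyte markers, fell by 1.67 on the log2 scale on long days (adjusted p = 0.0207, edgeR), from 1239 to 3083 CPM at 8L to 339.4 to 1565 CPM. Of the 14 hepatocyte markers tested 4 had a fitted level above 8L and 10 below, and only AHSG passed (median -0.36). CIDEC, a lipid droplet protein on the adipocyte list, fell by 3.43 in liver (adjusted p = 0.0144, edgeR), from 61.88 to 187.6 CPM at 8L to 0 to 54.06 CPM. Of the 4 adipocyte markers tested 1 had a fitted level above 8L and 3 below, and only CIDEC passed (median -0.87). The whole list (10 of 11) summed to 890.6 to 1283 CPM at 8L, 1204 to 1449 at 12v and 950.5 to 1499 at 16v. Most of that sum was CD36, with a mean of 1025 CPM. The AHSG call was lost in 3 of the 12 fits without a library and after adjustment for the score (-1.77, adjusted p = 0.15, edgeR). The CIDEC call was lost in 2 of the 12 and after that adjustment (-2.53, adjusted p = 0.148, edgeR). The part of these cell types in the liver changes was not tested.

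By list, in liver on long days, 1 of 3 tested genes of iron storage and ferritin turnover passed as higher (NCOA4). For heme handling 1 of 7 passed as higher (BACH1) and for heme synthesis 1 of 6 as lower (TSPO). In the hypoxia-inducible factor system 1 of 5 passed as higher (EPAS1). None of the 2 tested genes of iron uptake, the 8 of iron regulatory proteins and the hepcidin axis or the 9 of iron-sulfur cluster assembly passed. Median log2 changes were -0.11 for storage, 0.05 for heme handling, 0.48 for heme synthesis, 0.33 for the hypoxia system, -0.43 for uptake, 0.39 for the regulatory list and -0.03 for iron-sulfur assembly, beside -0.02 over all genes. HMOX2, the constitutive heme oxygenase, was 68.8 to 120 CPM at 8L and 2.19 to 91.2 CPM on long days in liver, with -1.31 ± 0.79 at 12v (adjusted p = 0.395, edgeR). In adipose tissue HMOX2 was 66.0 to 149 CPM at 8L and 137 to 230 CPM on long days (0.86 ± 0.27, adjusted p = 0.576, edgeR).

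In adipose tissue none of the 7 uptake, 4 storage, 11 regulatory, 9 heme-handling, 7 heme-synthesis, 14 iron-sulfur or 6 hypoxia-system genes tested passed in any comparison. STEAP4, a metalloreductase of adipocytes, had no count in the 4 libraries of 8L, reached 42.8 to 77.6 CPM in 12v replicates 1, 2 and 4, and was 22.8 and 14.1 CPM in 16v replicates 1 and 4; the other 3 long-day libraries had none. SMAD7 inhibits the signal that induces hepcidin in mammals. It was 8.51 to 22.8 CPM at 8L and 19.8 to 140 CPM on long days (1.83 ± 0.51, adjusted p = 0.486, edgeR). BOLA3, an iron-sulfur assembly factor, was 0.96 ± 0.29 higher on long days (adjusted p = 0.571, edgeR).

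Between tissues the surrounding genes split in both directions. TMPRSS6, the liver protease that restrains hepcidin in mammals, was higher in liver (10.01 ± 0.67, adjusted p = 1.32e-08, edgeR). So were HPX, the plasma heme carrier (9.52 ± 0.95, adjusted p = 5.48e-08), and STEAP3, an endosomal iron reductase (3.40 ± 0.48, adjusted p = 2.84e-06), by edgeR. ACO1, iron regulatory protein 1, was 1.86 ± 0.22 higher in liver (adjusted p = 1.99e-07). BLVRA, which reduces the biliverdin made by heme oxygenase (-4.55 ± 0.96, adjusted p = 0.000654), and CYBRD1, a surface iron reductase (-2.30 ± 0.48, adjusted p = 0.000273), were lower in liver by edgeR. The change at 16v differed between tissues for EPAS1 (3.26 ± 0.65, adjusted p = 0.0403, edgeR). It also did for PCBP2, an iron chaperone (adjusted p = 0.0404, edgeR), which in liver had 45.8 to 59.7 CPM in 3 of 4 libraries at 8L and none at 16v, and in adipose tissue 0 to 48.3 CPM at 8L and 47.9 to 151 CPM at 16v. The endothelial marker CDH5 (2.83 ± 0.61, adjusted p = 0.0425, edgeR) and CIDEC (-4.80 ± 0.91, adjusted p = 0.0403, edgeR) also passed there. Leaving out 1 library lost the call of EPAS1 in 14 of 24 fits, of PCBP2 in 18, of CDH5 in 21 and of CIDEC in 12. With libraries blocked by label number, 0 genes passed in the tissue difference at 16v, so all of these calls were lost.

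The genes whose levels ran most like those of an iron gene were found by Pearson correlation of log2 CPM over a tissue's 12 libraries. This is a description, which a few libraries of low ribosomal protein score or low depth can shape. For liver HMOX1 the nearest genes were SOD1 (0.983) and AP2S1 (0.969). For liver HEBP1 they were PLCB1 (0.947) and HPGD (0.848), and for liver FTH1 KYAT3 (0.961) and TUBD1 (0.946). Liver TF ran with SLC35B1 (0.963) and COMMD4 (0.961), liver SLC40A1 with FA2H (0.806) and MPEG1 (0.795), and liver CP with AGFG1 (0.933) and IGF2 (0.89). In adipose tissue the nearest were C7 (0.9) and EDF1 (0.886) for FTH1, EMG1 (0.941) and CCT4 (0.931) for TF, and LRRC4C (0.836) and PTPRR (0.795) for TFRC. ITPR3 (0.922) and COL4A2 (0.894) ran with SLC40A1, and PCOLCE2 (0.953) and DUSP3 (0.902) with HEBP1.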

How the data were processed

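Liver and adipose libraries (24 in all) were analysed from 1 deposited table per tissue of expected counts (estimated read counts per transcript), which the authors made with minimap2 and Salmon, per the submitters' processing notes. Not given in the sources used here: versions, genome build and annotation. Of the deposited values 99.4864% (liver) and 99.5614% (adipose) are whole within 1e-06; the rest were rounded after summing transcripts per gene. The tables list 13 transcripts of the 8 iron genes, and 0 other loci carry counts within 10% of theirs. Of the 46968 liver and 51835 adipose transcripts listed, 0 have an accession in the quail RefSeq table (Coturnix japonica 2.1), so the transcripts counted may not be quail ones, and how that affects each gene's count was not tested. All 8 symbols are in that table. No sequences were used.

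Members and lists were chosen with earlier results of these data known. Each tissue was fitted with edgeR 4.0.16 in R 4.3.3 (quasi-likelihood, robust; TMM; filterByExpr with minimum count 10 and minimum total 15), with a mean per photoperiod and all 12 libraries sharing the spread estimate. Both tissues were then fitted together over 7276 genes, with a gene not listed in a tissue at 0 there. SE was taken as |log2 fold change| / sqrt(F), and 95% intervals are normal ones from it. Such intervals are narrower than the test implies. That of liver TF at 12v excludes 0 (-1.85 to -0.09) at an unadjusted p of 0.0503 (edgeR). Each library was scored on principal component 1 of 70 ribosomal protein genes. The 8 members are named in every comparison; of other lists, up to 3 genes per direction that passed, or else 1 per direction by p. MRC1, TIMD4, AHSG, CIDEC, CDH5, HMOX2, STEAP4, SMAD7, BOLA3 and PCBP2 follow that rule, and their levels in each library were read afterwards. Alternatives used DESeq2 1.42.0 and limma 3.58.1, among others; leaving out 3 liver libraries in fits of both tissues was added after the data were seen. Figures used matplotlib. The fits were tested on simulated data. Amplified reads carry no molecular identifiers, so floors cover counting error only.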

Additional observations from a re-analysis of the deposited data

Results flagged for a closer look

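In 11 of 48 groups of 4 libraries, 1 library stood far from the other 3 by Dixon's ratio. Chance flags about 1 in 20 groups of normally spread values. That rate does not hold for groups of very few counts, where a single count beside zeros is always flagged. In liver these were HMOX1 in 12v replicate 4 (67.6 CPM, next 8.72), HEBP1 in 12v replicate 4 (91.2, next 125), CP in 12v replicate 3 (615, next 291) and SLC40A1 in 16v replicate 2 (185, next 140). SLC11A2 stood apart in 12v replicate 4 (1.69 CPM) and 16v replicate 4 (1.16 CPM) of liver and 12v replicate 4 of adipose tissue (0.808 CPM), each a single count beside libraries at 0. In adipose tissue TFRC in 8L replicate 4 (20.04 CPM, next 7.80), CP in 8L replicate 1 (13.7, next 9.02), CP in 12v replicate 2 (24.1, next 0.808) and HMOX1 in 16v replicate 2 (11.7, a single count, next 3.03) stood apart. Liver 12v replicate 4 stood apart for 3 of the genes, HMOX1 and HEBP1 with 40 and 54 counts.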

How the results depend on the processing

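Of 1693 alternative values for 65 single-gene results, 1603 kept their direction and side of the threshold, 24 newly passed, 4 no longer passed and 62 changed sign. No sign changed in 47 results. The cause was not tested for any of them. Few counts limit TFRC and SLC11A2 in both tissues and CP and HMOX1 in adipose tissue, and 4 libraries a group limit every comparison between photoperiods. Counts of iron genes past the threshold, 0 between photoperiods, were with DESeq2 1 for adipose 16v against 8L, 2 for adipose long days, 2 for liver 16v against 8L, 1 for liver long days and 1 for the tissue difference at 16v. With 1 transcript per gene they were 1 for adipose long days, 2 for liver 16v and 1 for liver long days, with limma-voom 1 for liver 16v and 1 for liver long days, and for liver long days also 1 with a mean of at least 20 counts and 1 with relative log expression (RLE) factors. Leaving out single libraries gave 0 to 1 in liver for 12v, 16v and long days, and 1 arose without 12v replicate 4. Between tissues the count of 5 ran from 4 to 6. Of all genes, DESeq2 called 38 in each of the 2 adipose comparisons and 361 for the tissue difference at 16v. In liver it called 546 at 16v and 766 on long days. The edgeR fits tested 6494 genes in adipose tissue, 4532 in liver and 7276 in both together. With RLE factors 211 liver genes passed on long days. Totals for limma-voom, and for a mean of at least 20 counts in liver, are not given here, so those calls stand without a share.

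In liver, FTH1 at 12v changed sign with library size alone (0.0198), with the ribosomal protein score in the model (1.16), without the 3 low-score libraries (0.62) and over single libraries left out (-0.66 to 0.12). FTH1 on long days changed sign with DESeq2 (-0.021), limma-voom (-0.28) and RLE factors (-0.021) and ran from -0.15 to 0.24 without single libraries. CP with the score in the model was -0.15 at 12v and -0.0022 on long days, and ran from -0.054 to 0.54 at 12v without single libraries. HEBP1 at 12v was -0.028 with DESeq2, -0.0038 with RLE factors and -0.11 to 0.25 without single libraries. SLC40A1 at 16v was 0.031 with 1 transcript per gene, 0.21 with library size alone, 0.025 with a mean of at least 20 counts, 0.075 without the 3 libraries and -0.21 to 0.22 without single ones. SLC40A1 on long days ran from -0.065 to 0.35 and HMOX1 at 16v against 12v from -1.35 to 0.89. TF with the score in the model was 0.43 at 16v and 0.12 on long days.

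In adipose 16v against 12v, TF was -0.036 with limma-voom and -0.27 to 0.42 without single libraries, TFRC -0.0038 with RLE factors and -0.30 to 0.18, FTH1 -0.0078 to 0.41 and HEBP1 -0.11 to 0.63. Between tissues SLC40A1 was -0.22 with library size alone and -0.025 to 0.44 without single libraries. In the tissue difference at 12v, HMOX1 was -0.75 with limma-voom and -1.69 to 0.48 without single libraries. TF there was 0.15 with library size alone, 0.57 without the 3 libraries and -0.58 to 0.23 without single ones.

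Deviations from the group means correlated at -0.17 to 0.215 between liver libraries of 1 sample number (3 of 12 pairs over 0.1). In adipose tissue they correlated at -0.0963 to 0.0475, and between liver and adipose libraries of 1 label number at -0.0324 to 0.0675. Such values cannot show whether libraries of different tissues share a bird. The main fits used no block, so their p-values between tissues treat libraries of 1 label number as independent. The replicate block was the sample number in fits of 1 tissue and the label number in fits of both tissues. Sample numbers run within each photoperiod, so in fits of 1 tissue the block need not follow a real pairing. With a replicate block, liver FTH1 was -0.016 at 16v and -0.30 on long days, and liver SLC40A1 0.021 at 16v. Adipose TFRC was -0.043 at 16v against 12v and the tissue difference of HMOX1 at 12v was -0.33. With the replicate block liver HMOX1 on long days was -2.70 (adjusted p = 0.0562, edgeR), FTH1 between tissues was 0.97 (adjusted p = 0.129) and the calls of BACH1 and NCOA4 were lost (adjusted p = 0.0743 and 0.0562). RLE factors also lost the BACH1 call (adjusted p = 0.0554).

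Over all genes, the liver counts of 15 (12v), 36 (16v) and 174 (long days) became 365, 546 and 766 with DESeq2, 141, 478 and 644 with 1 transcript per gene, and 3, 2 and 4 with the score in the model. Without single libraries they ran from 0 to 291, 0 to 209 and 15 to 550. The share of liver calls that were higher on long days was 41.4% with TMM, 31.8% with RLE factors and 67.3% when scaled by library size only; at 12v it was 60%, 46.7% and 83.8%, and at 16v 47.2%, 36.4% and 76.4%. The adipose counts of 1, 0 and 1 became 22, 38 and 38 with DESeq2. The counts for the tissue difference, 31 at 12v and 24 at 16v, became 183 and 361 with DESeq2 and 0 and 0 with the replicate block, and the 4144 between tissues became 2121 with a mean of at least 20 counts.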
